A study of Mus musculus with 14 samples.

Results

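The 8 genes described here encode immune checkpoint receptors and ligands. The 6 receptors were Pdcd1 (PD-1), Ctla4, Lag3, Havcr2 (TIM-3), Tigit and Btla, and the 2 ligands were Cd274 (PD-L1) and Pdcd1lg2 (PD-L2). They were taken by symbol from the 56414 genes of the deposited table, in which each of the 8 had 1 row. No measured value entered that rule, although earlier results of these data were known when the genes were chosen. Bulk RNA-seq of polyA RNA had been done on 14 mammary tumors of C57Bl/6 mice, with 1 library per tumor. M/D tumors were induced in females of 6 to 9 weeks by a pellet releasing 50 mg of medroxyprogesterone acetate (MPA) over 90 days and by 6 gavages with 200 µL of 7,12-dimethylbenz[a]anthracene (DMBA) at 5 mg per mL. AT3 tumors grew from AT3 cells, a mouse mammary carcinoma line, injected under the skin. In both models mice were assigned to treatment once tumors had reached 0.25 cm2, and those of the treated groups drank water with 0.5% nicotinamide (NAM, the amide form of vitamin B3) for 10 days. There were 4 untreated and 4 NAM-treated M/D tumors, and 3 untreated and 3 NAM-treated AT3 tumors. The comparisons asked whether NAM moved the checkpoint genes in each model, whether its effect differed between models, and how their levels differed between untreated tumors of the models.

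Checkpoint receptors are surface proteins that restrain T cells and, for several of them, natural killer (NK) cells. PD-1 appears on T cells after activation and stays high on T cells that keep meeting antigen, where binding of PD-L1 or PD-L2 recruits phosphatases that dampen the antigen receptor. CTLA-4 competes with the costimulatory receptor CD28 for CD80 and CD86, and is abundant on regulatory T cells. LAG-3 binds MHC class II, TIM-3 is carried by exhausted T cells and also by macrophages and dendritic cells, TIGIT competes with CD226 for CD155 and Nectin-2, and BTLA, present on B cells as well as T cells, binds TNFRSF14. PD-L1 is made by tumor, stromal and myeloid cells and rises under interferon gamma, while PD-L2 is mostly made by dendritic cells and macrophages.

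On the mm10 assembly used by the authors, Cd274 (chr19:29367438-29388096) and Pdcd1lg2 (chr19:29410916-29472927) were neighbors on the same strand. Ctla4 (chr1:60909025-60915832) and Pdcd1 (chr1:94038307-94052553) shared chromosome 1 on opposite strands, and Tigit (chr16:43648861-43664184) and Btla (chr16:45224334-45252895) shared chromosome 16, also on opposite strands. Lag3 was at chr6:124904360-124911705 and Havcr2 at chr11:46454929-46481255. Each of these spans is the whole gene as the table gives it, and reads were counted over its constitutive regions. The spans of Cd274, Pdcd1lg2 and Btla each overlapped 1 other listed gene, with mean normalized counts of 1.4, 39.2 and 7.8, and since it is not stated whether strand was used in counting, reads of Pdcd1lg2 and of A930007I19Rik, its overlapping gene, may not be told apart.

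RefSeq gave a promoter window for 7 of the 8 genes (GRCm38.p6, the same assembly as mm10). The 250 bases before the annotated start are printed for Havcr2 and Tigit, which differed between the models, and for Ctla4 and Btla, which moved together over M/D tumors. The windows lie at chr11:46454681-46454930 (plus strand), chr16:43664185-43664434 (minus strand), chr1:60908775-60909024 (plus strand) and chr16:45224087-45224336 (plus strand), and are written 5′ to 3′ along the gene.
Havcr2: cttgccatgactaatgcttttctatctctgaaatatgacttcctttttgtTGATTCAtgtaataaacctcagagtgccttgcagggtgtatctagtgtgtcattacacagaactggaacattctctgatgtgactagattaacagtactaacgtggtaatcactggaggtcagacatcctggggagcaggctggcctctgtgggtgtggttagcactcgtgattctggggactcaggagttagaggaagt
Tigit: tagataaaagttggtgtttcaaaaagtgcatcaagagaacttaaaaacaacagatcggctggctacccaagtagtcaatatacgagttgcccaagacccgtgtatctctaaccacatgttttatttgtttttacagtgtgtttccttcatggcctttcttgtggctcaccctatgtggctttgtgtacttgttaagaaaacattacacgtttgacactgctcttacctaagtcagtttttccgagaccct
Ctla4: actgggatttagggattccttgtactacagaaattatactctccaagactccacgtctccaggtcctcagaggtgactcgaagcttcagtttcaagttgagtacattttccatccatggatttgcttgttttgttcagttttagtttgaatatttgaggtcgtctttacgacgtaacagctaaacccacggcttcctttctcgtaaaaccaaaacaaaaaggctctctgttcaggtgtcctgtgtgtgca
Btla: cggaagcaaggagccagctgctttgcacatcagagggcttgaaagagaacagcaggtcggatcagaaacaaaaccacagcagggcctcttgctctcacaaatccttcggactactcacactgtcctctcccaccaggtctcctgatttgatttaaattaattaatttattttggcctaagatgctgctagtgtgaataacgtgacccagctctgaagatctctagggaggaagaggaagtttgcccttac
Capitals mark the AP-1 motif TGANTCA, a palindrome apart from its central base and searched on both strands, which was found once, in Havcr2, and in 6.75% of 32851 windows of the same length. The interferon regulatory factor motif, GAAA repeated after any 2 bases and searched on both strands, was in none of the 7 windows, that of Cd274 included, and in 2.98% of all windows. The letters describe these windows and nothing about binding.

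Whole reads could be recovered from the deposited values and totalled 40936868 to 84178009 per tumor. The members were thinly covered, from 6 reads of Pdcd1 in untreated AT3 tumor 2 to 3265 reads of Lag3 in NAM-treated M/D tumor 4. NAM-treated M/D tumor 1, the only M/D tumor of experiment 2, stood apart from the other 7. The summed normalized count of 5 B cell markers was 190641 there against 99.9 to 1729 in the other M/D tumors, that of 7 epithelial markers was 7047 against 250181 to 1013084, and that of 6 T cell markers was 1173 against 2086 to 7282. The epithelial markers that define a mammary tumor were thus nearly missing from this tumor, and member values for NAM in M/D tumors are given with and without it. In AT3 tumors the epithelial sum was 73038 to 100557. Untreated AT3 tumor 2 had the lowest sum of T cell markers, at 237 against 379 to 1304 in the other AT3 tumors. In bulk RNA, fewer cells of a type and less RNA per cell cannot be told apart, and p-values measure only the spread between these tumors.

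Set per length, as recovered reads per kilobase of the longest GENCODE transcript and scaled to library size as RPKM values are, Tigit and Lag3 led in untreated M/D tumors, at 4.89 ± 2.31 and 4.66 ± 1.45 (SD, n = 4). Cd274 followed at 2.74 ± 1.43 and Havcr2 at 1.59 ± 0.366, ahead of Pdcd1lg2, Pdcd1, Ctla4 and Btla, which lay between 0.932 and 0.343. The tumors of every pair of neighbors in this order overlapped. In untreated AT3 tumors Lag3 led at 1.85 ± 0.383 (SD, n = 3), then Cd274 at 1.27 ± 0.461, Tigit at 1.06 ± 0.790 and Ctla4 at 1.02 ± 0.505. Ctla4 thus ranked 7 of 8 in untreated M/D tumors and 4 of 8 in untreated AT3 tumors. Havcr2, Pdcd1 and Pdcd1lg2 were between 0.376 and 0.344, and Btla was lowest at 0.106 ± 0.029. In AT3 tumors the steps from Ctla4 to Havcr2 and from Pdcd1lg2 to Btla were free of overlap, whereas the other neighbors overlapped.

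**Figure D1:**
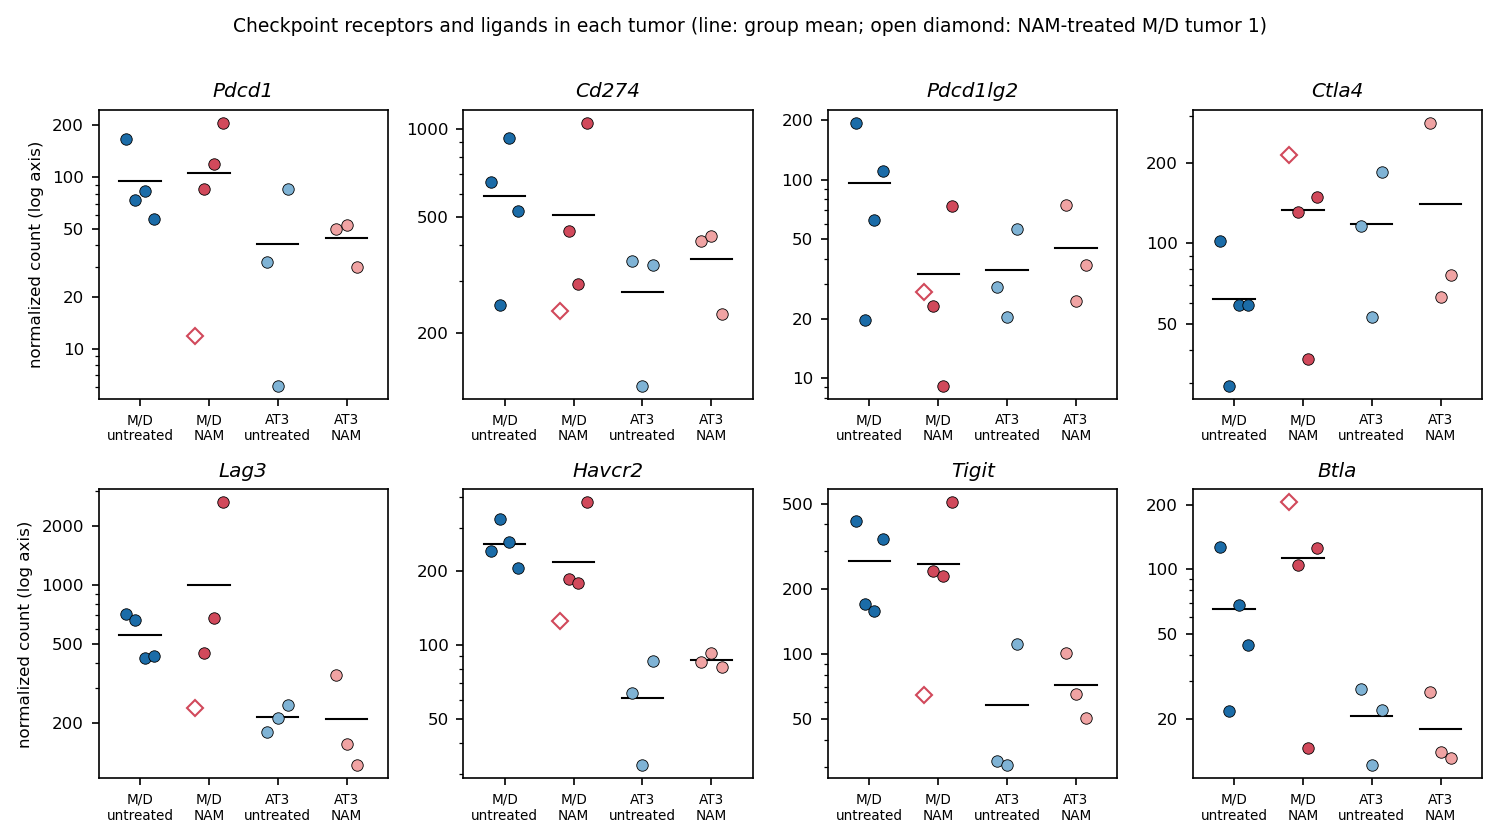
Normalized counts of the 8 checkpoint genes (log axis) in each of the 14 tumors, by model and treatment. Points are tumors, lines are group means, and the open diamond is NAM-treated M/D tumor 1, which is lowest of the 8 M/D tumors for 5 members and highest for Ctla4 and Btla. Untreated M/D and AT3 points are free of overlap for Lag3, Havcr2 and Tigit, while values of the models as deposited appear to be on separate scales.

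None of the checkpoint genes was called under NAM in M/D tumors. A gene was called when the limma test gave an unadjusted p of at most 0.05 and the fold was at least 1.5, which 6.22% of the 21700 genes tested reached. An adjusted p of at most 0.05 was reached by 0.00461% of genes. Of the 8 members 0 were called and 0 had an unadjusted p of at most 0.05 by limma, by edgeR on recovered reads or by DESeq2. The groups overlapped for each of the 8, where 4.43% of all genes were free of overlap. On the log2(normalized count + 1) scale 3 members were above 0 and 5 below, with a median of -0.28 against 0.01 for all genes. Within experiment 1, without NAM-treated tumor 1, 5 members were above 0 and 3 below, the median was 0.20 against -0.00, and again 0 of 8 were called by limma.

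Among the receptors, Pdcd1 stood at 166, 73.9, 83.4 and 57.1 normalized counts in untreated M/D tumors 1 to 4, and at 11.9, 85.2, 119 and 207 in NAM-treated tumors 1 to 4. The NAM-treated tumors spanned the untreated ones on both sides, with the lowest and the highest value of the model. The log2 difference (NAM minus untreated) was -0.29 (SE 0.84, adjusted p = 0.95, limma), and 0.54 within experiment 1, without NAM-treated tumor 1. Tigit, at 413, 172, 159 and 344 untreated and at 64.5, 242, 230.1 and 506 with NAM, had the same form, with a log2 difference of -0.27 (SE 0.64) and of 0.29 within experiment 1. In both genes NAM-treated tumor 1 was lowest and NAM-treated tumor 4 highest of the 8.

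Lag3 was at 710.5, 661, 423 and 433 in untreated tumors and at 236, 449, 676 and 2619 in NAM-treated tumors. NAM-treated tumor 4 alone lay far above the rest, and the log2 difference of 0.28 (SE 0.67, adjusted p = 0.94, limma) became -0.38 without that tumor and 0.77 within experiment 1. This tumor also held the highest sum of T cell markers of the 8, at 7282, and the part of T cell content in the level of Lag3 was not tested. Havcr2 varied least of the 8 genes in M/D tumors, from 206 to 325 in untreated and from 126 to 379 in NAM-treated tumors. Its log2 difference was -0.35 (SE 0.38, adjusted p = 0.84, limma) and -0.13 within experiment 1.

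Ctla4 was at 102, 29.3, 58.6 and 58.7 in untreated tumors and at 215, 131, 36.8 and 149 in NAM-treated tumors. NAM-treated tumors 1, 2 and 4 were above each untreated tumor, whereas NAM-treated tumor 3 fell among the untreated ones. The log2 difference was 0.97 (SE 0.62, adjusted p = 0.77, limma) and 0.66 within experiment 1, and Ctla4 was called only without NAM-treated tumor 3, at 1.49. Btla ran with it, at 128, 21.7, 68.3 and 44.3 untreated and at 205, 105, 14.7 and 126 with NAM. Its log2 difference was 0.56 (SE 0.87, adjusted p = 0.90, limma) and 0.11 within experiment 1. NAM-treated tumor 1 was the highest of the 8 for both genes, and it was also the tumor with the B cell markers given above, whose part in these 2 levels was not tested.

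Of the ligands, Cd274 was at 660, 249.9, 927 and 524 in untreated tumors and at 238, 447, 295 and 1048 in NAM-treated tumors. The groups overlapped across nearly their whole range, and the log2 difference was -0.32 (SE 0.56, adjusted p = 0.91, limma) and -0.04 within experiment 1. Pdcd1lg2 had the largest difference of the 8 in size. It was at 193, 19.6, 62.3 and 111 in untreated tumors, and at 27.2, 23.1, 9.2 and 73.8 with NAM. Untreated tumor 2 lay among the low NAM-treated values, and the log2 difference of -1.44 (SE 0.84, 95% interval -3.35 to 0.47, adjusted p = 0.75, limma) did not pass. Without untreated tumor 2 it was -2.05 and called, without untreated tumor 1 it was -0.97, and within experiment 1 it was -1.47.

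In AT3 tumors the checkpoint genes were again not called, in a comparison where 23.1% of the 19281 genes tested were and 0.00519% had an adjusted p of at most 0.05. By limma, edgeR and DESeq2 0 of the 8 members were called and 0 had an unadjusted p of at most 0.05. The groups overlapped for each of the 8, against 22.6% of all genes free of overlap. With NAM 6 members were above 0, and their median log2 difference was 0.40 against -0.05 for all genes. Untreated AT3 tumor 2 was the lowest of the 6 AT3 tumors for 7 of 8 members, and without it the median was -0.08 against -0.04.

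Pdcd1 was at 31.9, 6.1 and 84.7 in untreated AT3 tumors 1 to 3, and at 49.8, 52.7 and 29.7 in NAM-treated ones. The untreated tumors enclosed the treated ones, and the log2 difference of 0.69 (SE 0.82, adjusted p = 0.61, limma) became -0.28 without untreated tumor 2. Havcr2, at 63.8, 32.5 and 86.3 untreated and at 85.1, 93.1 and 81.8 with NAM, differed by 0.61 (SE 0.41, adjusted p = 0.37, limma). Its NAM-treated values lay close together at the top of the untreated range.

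Tigit was at 31.9, 30.5 and 112 untreated and at 101, 64.9 and 50.4 with NAM, a log2 difference of 0.52 (SE 0.55, adjusted p = 0.56, limma). Log2 differences of all genes in AT3 tumors followed transcript length (Spearman rho of 0.59 across genes), and with the trend in length and GC content removed Havcr2 was at 0.81 and Tigit at 1.18, both then called. Tigit was also called without untreated tumor 3, at 1.12. With that trend removed 2 of the 8 members were called higher, beside 8.77% of all genes. Their adjusted p in the alternatives ranged from 0.22 to 0.65 for Havcr2 and from 0.19 to 0.85 for Tigit.

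Lag3 was at 180, 211 and 247 untreated and at 349.9, 156 and 121 with NAM, a log2 difference of -0.16 (SE 0.40). Ctla4 was at 116, 52.8 and 185 untreated and at 283, 63.0 and 76.0 with NAM, a difference of 0.09 (SE 0.63). NAM-treated tumor 1 was the highest AT3 tumor for both. Btla was low in all 6 tumors, from 12.2 to 27.5 untreated and from 13.2 to 26.7 with NAM. Cd274 was at 354, 132 and 341 untreated and at 414, 431 and 233 with NAM, a log2 difference of 0.46 (SE 0.43, adjusted p = 0.51, limma), and Pdcd1lg2 ranged from 20.3 to 56.2 untreated and from 24.5 to 74.1 with NAM. For these genes the NAM-treated tumors fell on both sides of the untreated median.

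The effect of NAM was then set against itself between the models by an interaction term over the 14 tumors. It was called for 0 of 8 members by limma, edgeR and DESeq2, with 0 at an unadjusted p of at most 0.05, beside 14.9% of 22710 genes, 6.97% higher and 7.9% lower. The term (M/D effect minus AT3 effect) was largest in size for Pdcd1lg2, at -1.78 (SE 1.13, 95% interval -4.20 to 0.65, adjusted p = 0.45, limma), then for Pdcd1 at -0.98 (SE 1.30) and Havcr2 at -0.96 (SE 0.58). It was 0.88 (SE 0.99) for Ctla4 and 0.74 (SE 1.14) for Btla. Leaving out 1 tumor brought a call for Pdcd1lg2 (-2.38, without untreated M/D tumor 2) and for Havcr2 (-1.27, without NAM-treated M/D tumor 4). In the fit of all tumors each interval held 0 and reached past a 1.5-fold difference on at least 1 side.

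**Figure D2:**
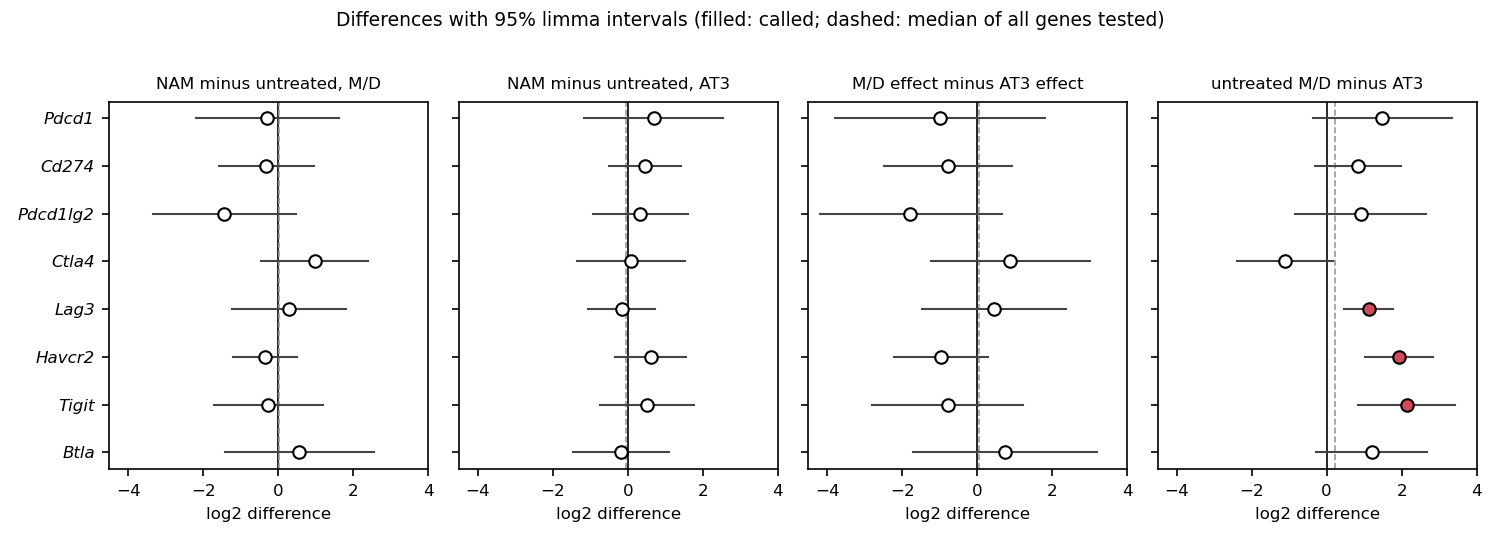
Log2 differences of the 8 checkpoint genes with 95% intervals from limma for the effect of NAM in M/D tumors, in AT3 tumors, the difference of these effects, and untreated M/D minus untreated AT3 tumors. Filled points were called, and the dashed line is the median of all genes tested. Filled points are seen in the last panel alone, for Lag3, Havcr2 and Tigit, and Ctla4 is the only gene left of 0 there.

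Between untreated tumors of the models, Havcr2, Tigit and Lag3 were higher in M/D than in AT3 tumors, and Ctla4 was the only member on the other side of 0. Since each model appeared to have been normalized apart, the recovered reads of the 14 tumors were put on 1 scale by TMM factors, and values here are on that scale. At the same thresholds 56.2% of 21650 genes were called, 33.4% higher and 22.8% lower in M/D tumors, and 51.3% had an adjusted p of at most 0.05, so that a call was common. Of the 8 members 3 were called, each higher, and the groups were free of overlap for these 3, as for 53.9% of all genes. The median of the members was 1.16 against 0.22 for all genes. The all-gene median was -0.56 with upper quartile factors and 0.48 with values as deposited. Model, site of growth and experiment cannot be told apart in this comparison.

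Havcr2 was at 234, 319, 253 and 195 in untreated M/D tumors and at 71.2, 37.2 and 99.8 in untreated AT3 tumors. The lowest M/D tumor was well above the highest AT3 tumor, with a log2 difference of 1.92 (SE 0.40, 95% interval 1.01 to 2.83, adjusted p = 0.0046, limma), or 3.79-fold. Tigit was at 401, 169, 154 and 326 in M/D and at 35.6, 34.9 and 129 in AT3 tumors. The gap was narrow, since AT3 tumor 3 approached M/D tumor 3, and the log2 difference was 2.13 (SE 0.57, 95% interval 0.83 to 3.42, adjusted p = 0.014, limma), or 4.37-fold. Both genes, the ones whose promoter windows are printed first, were called under each of the 16 alternatives.

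Lag3 was at 689, 649, 409 and 410.4 in M/D and at 201, 242 and 285 in AT3 tumors, a log2 difference of 1.12 (SE 0.29, adjusted p = 0.012, limma), or 2.17-fold. With upper quartile factors it was 0.40 and not called. Pdcd1 (1.48, SE 0.82, adjusted p = 0.16), Btla (1.20, SE 0.65, adjusted p = 0.15), Pdcd1lg2 (0.91, SE 0.76, adjusted p = 0.34) and Cd274 (0.84, SE 0.50, adjusted p = 0.19) overlapped between the models and were not called by limma. Pdcd1 was called without untreated AT3 tumor 3 (2.32) and was 0.51 without untreated AT3 tumor 2. Btla was called with the trend in length and GC content removed (1.58), and Cd274, Pdcd1lg2 and Btla without untreated M/D tumor 2 (1.20, 1.51 and 1.61).

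Ctla4 was at 98.7, 28.8, 56.6 and 55.7 in M/D and at 129, 60.4 and 214 in AT3 tumors. M/D tumors 2, 3 and 4 were below each AT3 tumor, and M/D tumor 1 lay between AT3 tumors 2 and 1. The log2 difference was -1.10 (SE 0.57, 95% interval -2.39 to 0.18, adjusted p = 0.13, limma). It was below 0 in each of the 16 alternatives, from -1.81 to -0.49, the latter with the trend in length and GC content removed, and was -0.68 without untreated AT3 tumor 3. It was called in 4 of them, by DESeq2 (-1.35), with upper quartile factors (-1.81), without untreated M/D tumor 1 (-1.38) and without untreated AT3 tumor 2 (-1.58).

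T cell markers stood beside these differences. Of 6 T cell markers 5 were called higher in untreated M/D than in AT3 tumors, among them Cd3e, which encodes a chain of the T cell receptor complex, at a log2 difference of 2.47 (SE 0.56, adjusted p = 0.0067, limma), and sums of the 6 on the TMM scale were 2048 to 4818 against 271 to 1508. Ptprc, the pan-leukocyte gene for CD45, was higher by 2.40 (SE 0.30, adjusted p = 0.00046, limma), and Foxp3, the defining factor of regulatory T cells, by 4.34 (SE 1.07, adjusted p = 0.0097, limma). The size for Foxp3 is uncertain, since its deposited values in untreated AT3 tumors were 0.00, 10.15 and 23.61. Leaving out 1 tumor gave 2.93 to 5.34 for Foxp3. Of 4 regulatory T cell markers 3, Foxp3 among them, were called higher, as were 5 of 6 macrophage and 5 of 6 dendritic cell markers. So were 3 of 3 endothelial, 3 of 3 adipocyte, 3 of 4 fibroblast and 4 of 7 epithelial markers. The calls were thus not limited to leukocyte genes. Of 4 NK cell, 5 B cell and 5 precursor B cell markers 0 were called higher, and 1 precursor B cell marker, Rag1, was called lower. The share of these cells in the level of each member was not tested.

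Members were therefore also expressed as the log2 ratio to the mean log2 value of Cd3d, Cd3e and Cd3g in the same tumor, a ratio within a library in which scale factors nearly cancel. Ctla4 had ratios of -3.02, -3.64, -2.98 and -2.43 in untreated M/D tumors and of 0.22, 0.29 and -0.43 in untreated AT3 tumors. The groups were far apart, with a difference of -3.05 (M/D minus AT3), and an exact two-sided permutation test gave p = 0.057, the smallest value that 4 against 3 tumors allow. Leaving out each tumor in turn gave -3.27 to -2.84, and the difference was -3.51 relative to Ptprc and -2.68 relative to macrophage markers. The 3 NAM-treated AT3 tumors were at 0.31, -0.61 and 0.31, on both sides of the untreated ones. The Cd3 genes are among the 6 T cell markers, whose median log2 difference between untreated tumors of the models was 2.40 against 0.22 for all genes. Much of the gap in the Ctla4 ratio thus lies in its denominator, since the level of Ctla4 differed by -1.10 and was not called. Such ratios were not computed for all genes, so how common a gap of this size is was not tested.

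Relative to the Cd3 genes the 3 members called above did not stand apart. Havcr2 had mean ratios of -0.87 ± 0.66 (SD, n = 4) in untreated M/D and -0.85 ± 0.59 (SD, n = 3) in untreated AT3 tumors, a difference of -0.02. Tigit differed by 0.18 and Lag3 by -0.82, with overlap for both. The other differences were -0.47 for Pdcd1, -1.10 for Cd274, -1.04 for Pdcd1lg2 and -0.75 for Btla, again with overlap. On the Cd3 scale Ctla4 alone of the 8 members was free of overlap, except that Pdcd1 was too (difference -0.82) once untreated AT3 tumor 2 was left out. The share of all genes free of overlap was not computed for ratios, and on levels it was 53.9%. Relative to Ptprc, Lag3 (-1.28) and Cd274 (-1.56) were also free of overlap and lower in M/D tumors (exact permutation p = 0.057 for each). Both levels differed in the opposite direction, by 1.12 and 0.84, the latter not called. Ptprc itself was higher by 2.40 in M/D tumors, against a median of 0.22 for all genes, and its ratios were not computed for all genes.

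Under NAM, the ratio of Ctla4 in M/D tumors was 0.40 in tumor 1 and -1.62, -3.42 and -3.04 in tumors 2 to 4. NAM-treated tumor 1 thus lay just above the 6 AT3 tumors and more than 2 log2 units above the highest untreated M/D tumor, and the mean differed from that of untreated tumors by 1.10, or by 0.33 without this tumor. Btla had the same outlying value, 0.33 in that tumor against -4.68 to -1.95 in the other 7. Pdcd1 ratios of the untreated M/D tumors were nearly equal, from -2.48 to -2.32, although its normalized counts ranged from 57.1 to 166 there. With NAM they spread from -3.67 to -1.75. No member had groups free of overlap between NAM and untreated tumors on this scale in either model.

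**Figure D3:**
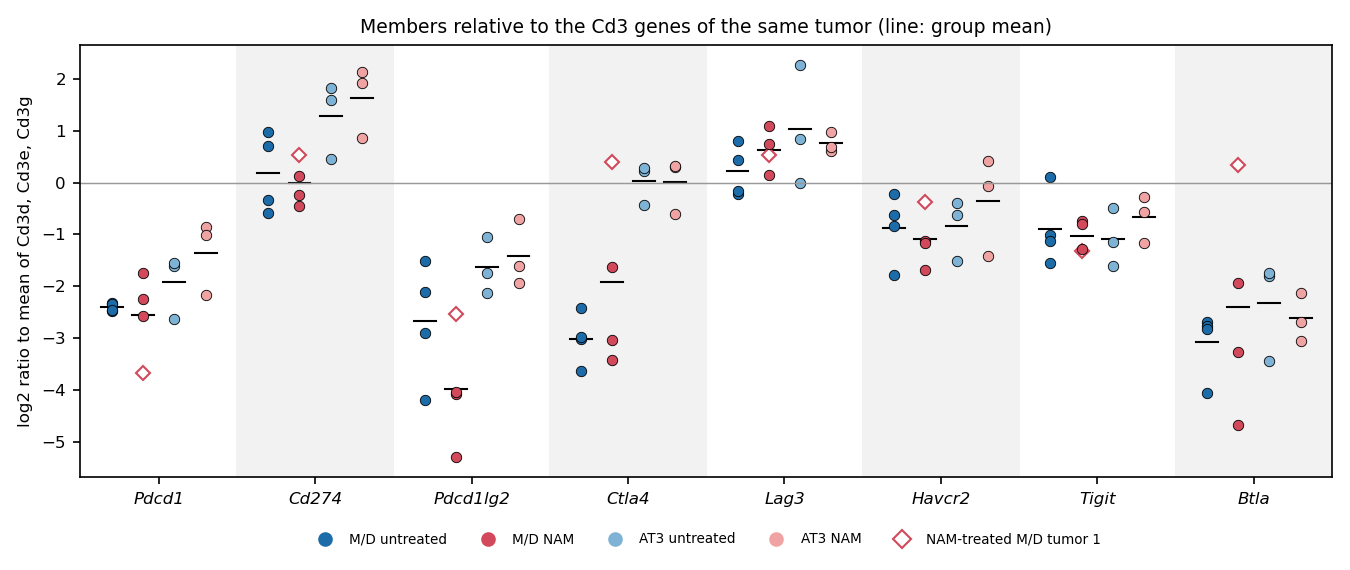
Log2 ratio of each checkpoint gene to the mean of Cd3d, Cd3e and Cd3g in the same tumor, by model and treatment. Points are tumors, lines are group means and open diamonds are NAM-treated M/D tumor 1. Ctla4 is near 0 in the 6 AT3 tumors (-0.61 to 0.31) and between -3.64 and -2.43 in untreated M/D tumors, while Pdcd1 points of untreated M/D tumors fall almost on each other.

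Across tumors, most pairs of members had a positive correlation, but few passed a test. Of the 28 pairs of members 20 had a Pearson r above 0 over the 8 M/D tumors, 28 over the 7 tumors of experiment 1, and 27 over the 6 AT3 tumors, with median r of 0.43, 0.49 and 0.63. By the exact permutation test 6, 3 and 6 pairs had an unadjusted p of at most 0.05, and 1, 0 and 0 passed after adjustment over the 28. Without the 2 tumors farthest from the median of the first gene of a pair, 6, 16 and 10 pairs had an r below 0. In experiment 1 and in AT3 tumors, where 28 and 27 pairs had been above 0, many positive values thus rested on such tumors. Over the 8 M/D tumors, where 20 had been above 0, pairs below 0 were no more numerous than before. The tumors of a pair share library and depth, and treated and untreated tumors were pooled. Ctla4 and Btla were the closest pair in M/D tumors, at r = 0.94 (exact permutation p = 0.0006, adjusted p over the 28 pairs = 0.017) and Spearman rho = 0.88 (exact permutation p = 0.0072). Without the 2 tumors farthest from the median of Ctla4 r was 0.91. In experiment 1 alone r was 0.93 (rho 0.82, exact p = 0.0056, adjusted p = 0.16), and in AT3 tumors it was 0.86 (rho 0.77, exact p = 0.051, adjusted p = 0.19), so that after adjustment the relation passed only with NAM-treated tumor 1 included. In that fit, Ctla4 had negative r with Pdcd1 (-0.28) and Havcr2 (-0.31), which became 0.54 and 0.12 without the tumor.

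**Figure D4:**
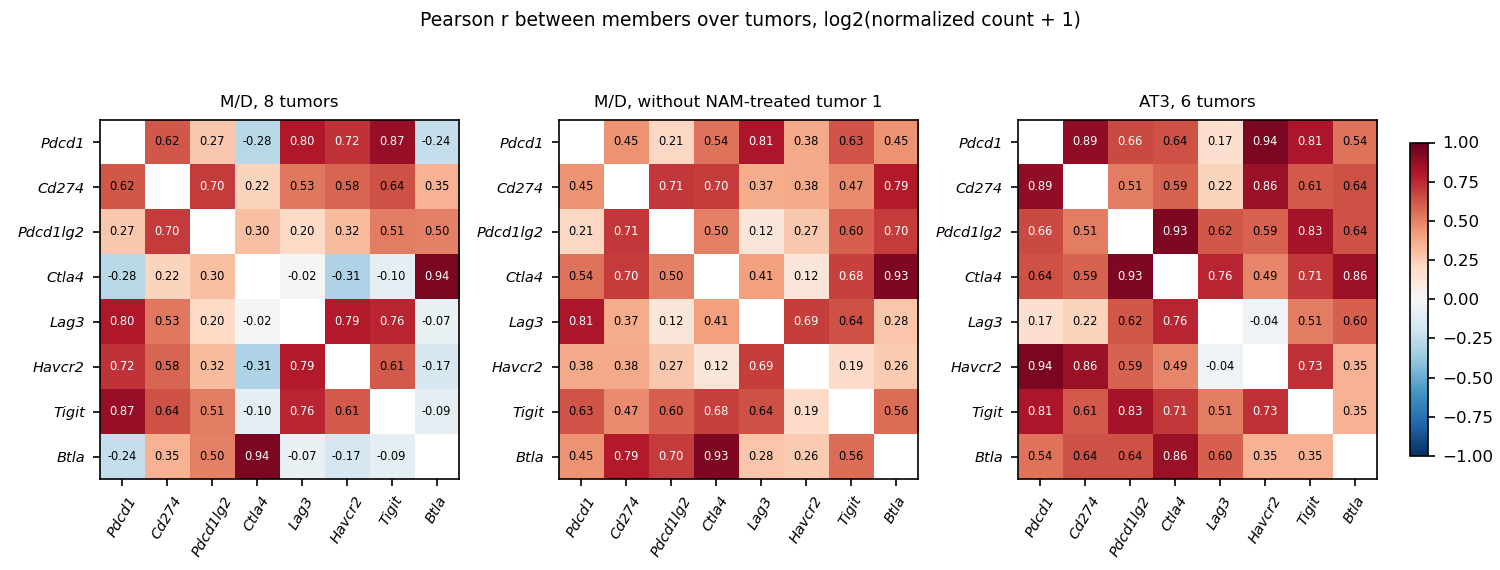
Pearson r between the 8 checkpoint genes over tumors, on log2(normalized count + 1), for 8 M/D tumors, for the 7 without NAM-treated tumor 1, and for 6 AT3 tumors. Red is positive and blue negative. The negative cells of Ctla4 and Btla in the first panel are absent from the second, and the Ctla4 and Btla pair is 0.94, 0.93 and 0.86 in the 3 panels.

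The genes most like each member over the 14 tumors, after centering on the mean of each model, were taken among 14617 genes with a symbol and a mean of at least 50, as a description. NAM-treated M/D tumor 1, lowest of the M/D tumors for 5 members and highest for 2, was included. These r were not computed without it. Pdcd1 was closest to the MHC class II genes H2-Aa, H2-Ab1 and H2-Eb1 (r = 0.91, 0.90 and 0.89). Ctla4 was closest to Ccr7, a chemokine receptor of naive T cells, B cells and mature dendritic cells (0.91), and Tigit to Ptpro (0.88), with Cd247, a T cell receptor chain, also at 0.88. Havcr2 was closest to Mpeg1, which encodes perforin-2 and is abundant in macrophages (0.91), and Lag3 to Adamdec1 (0.89). Cd274 and Pdcd1lg2 both had Cd5, a T cell surface gene, among their 3 closest (0.82 and 0.84). Btla had Ctla4 among its 3 closest (0.87).

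The wider pathway was described by 7 lists, given with the share of all genes called in each direction. In M/D tumors 5 genes of the lists, which held 6 to 14 tested genes each, were called with NAM, all lower when the 8 tumors were fitted. Of all genes 6.22% were called in either direction, 3.19% lower and 3.03% higher. Of 14 counter-receptors and ligands of the members, 0 were called higher and 2 lower, Nectin2, a ligand of TIGIT (log2 difference -0.63, SE 0.24), and Ceacam1, a partner of TIM-3 (-1.05, SE 0.45). Of 6 costimulatory ligands 1 was called, Tnfsf18, which encodes GITR ligand, lower at a log2 difference of -3.06 (SE 1.07). Of 13 other inhibitory genes 1 was called, Nt5e, the CD73 enzyme that makes adenosine, lower at -2.12 (SE 0.74). Adjusted p was 0.73 by limma for each of these 4 genes. Within experiment 1 the lists held 3 calls, beside 2.85% of all genes called higher and 2.33% lower. Tnfsf18 (-3.19) and Nr4a2 were lower. Tox, a factor of exhausted T cells, was higher at 1.43 (SE 0.48, adjusted p = 0.81, limma), against 0.86 (SE 0.65) and no call over the 8 tumors. Nectin2, Ceacam1 and Nt5e were not called within experiment 1, at -0.50, -0.81 and -1.85, and Tnfsf18 was called in 14 of 18 alternatives, with -2.81 and no call without NAM-treated tumor 3.

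Of 12 regulators of T cell exhaustion Nr4a2, an orphan nuclear receptor also induced by acute stimuli in many cells, was called in M/D tumors. It was at 4503, 395, 3105 and 2086 normalized counts in untreated tumors and at 105, 133, 308 and 227 with NAM. The groups were free of overlap, and the log2 difference was -3.37 (SE 0.74, adjusted p = 0.73, limma) and -3.13 within experiment 1. It was called in each of the 18 alternatives, with adjusted p from 0.00013 to 0.99. In AT3 tumors Nr4a2 was at 378, 696 and 415 untreated and at 620, 939 and 1083 with NAM, a log2 difference of 0.84 (SE 0.32), and the interaction was -4.22 (SE 0.94, adjusted p = 0.18, limma). The 10 genes of the interferon gamma axis, the 10 rival activating receptors and the 8 phosphatases and adaptors had 0 calls by limma in M/D tumors, and 0 of them had an unadjusted p of at most 0.05.

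In AT3 tumors more genes of the lists were called with NAM, beside 12.2% of all genes called higher and 10.9% lower. Of 11 exhaustion regulators tested 5 were called higher and 0 lower, with Nfatc1 (1.57, SE 0.52), Prdm1 (1.36, SE 0.49), Tcf7 (1.24, SE 0.42) and Nr4a2 having the smallest p. Tcf7 marks naive and memory-like T cells, while NFATC1 and BLIMP-1, the product of Prdm1, act in activated and exhausted T cells. Of 12 other inhibitory genes tested 3 were called higher, Sirpa, the receptor for CD47 on myeloid cells (1.25, SE 0.30), Cd276, which encodes B7-H3 (0.99, SE 0.30), and Entpd1, which encodes CD39 (0.64, SE 0.25).

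Ceacam1 was called higher (0.85, SE 0.30) and Lgals3, a ligand of LAG-3, lower (-1.17, SE 0.33) in AT3 tumors. Icosl, the ligand of ICOS, was higher by 0.95 (SE 0.34). Of the interferon gamma axis Jak1 (0.76, SE 0.26) and Stat3 (1.04, SE 0.38) were called, and of the phosphatases Ptpn11, which encodes SHP-2 (1.38, SE 0.38), and Inpp5d, which encodes SHIP-1 (0.99, SE 0.31). Adjusted p was 0.17 or 0.18 for each gene named here, so that none passed over all genes. With the trend in transcript length removed, Entpd1, Jak1, Stat3 and Inpp5d were at 0.44, 0.33, 0.36 and 0.46 and no longer called. Ptprc (0.71) and 3 of 6 macrophage markers, Csf1r, Adgre1 and Mrc1, were also called higher in these tumors, as were 3 of 3 endothelial markers and the regulatory T cell markers Foxp3 and Ikzf2, while 0 of 6 T cell markers were. With the same trend removed, Ptprc (0.42), Csf1r (0.54), Mrc1 (0.45), Foxp3 (2.36) and Ikzf2 (0.35) were not called. Adgre1 (1.04), 2 of 3 endothelial markers and 1 of 4 regulatory T cell markers were then called. The part of leukocyte content in the list genes was not tested.

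**Figure D5:**
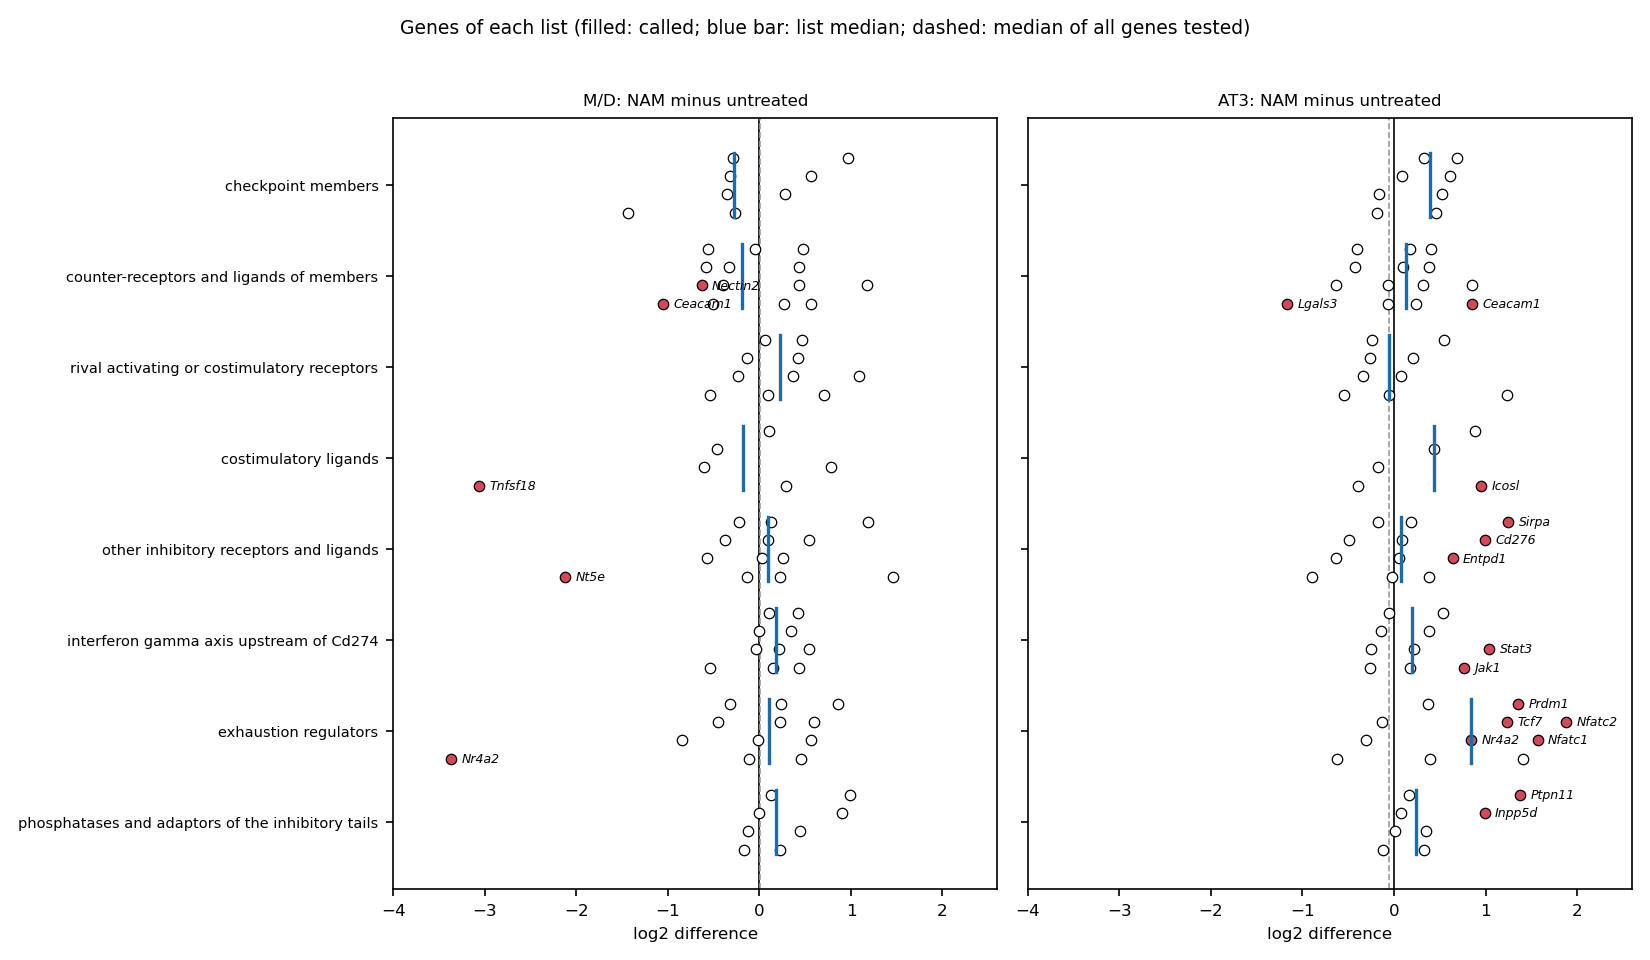
Log2 difference (NAM minus untreated) of each gene of the member list and of 7 pathway lists, in M/D and AT3 tumors. Filled points with a name were called, blue bars are list medians and the dashed line is the median of all genes tested. Called genes are all left of 0 in M/D tumors and all but Lgals3 right of 0 in AT3 tumors, and the member row has no filled point.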

How the data were processed

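Per the labels and the study's methods, polyA RNA of 14 tumors was sequenced in paired reads, aligned to mm10 with STAR 2.4.0 and counted over constitutive regions. The authors deposited normalized counts per gene (a signal in which counts were divided by DESeq2 size factors). Judged from the values, the size factors appear to have been set in each model separately. In each tumor 100% of values came out as whole reads (tolerance 0.01), and these recovered reads were used for edgeR and DESeq2. The deposited values were tested as log2(normalized count + 1) by limma (3.58.1, with a mean-variance trend), within each model for the effect of NAM and over 14 tumors for the interaction. Untreated M/D and AT3 tumors were compared on TMM-scaled recovered reads (edgeR 4.0.16). Genes whose mean reached 10 in any group entered the tests, and p-values were adjusted over all of them by Benjamini-Hochberg. Calls required a raw limma p no higher than 0.05 together with a change of 1.5-fold or more. Named genes were the 8 members, at most 4 called genes per pathway list and model by smallest p, and the 3 genes most like each member. Nectin2 and others outside the members were named by this rule, while Tox and the markers were named after their values were seen. The members and lists were chosen with earlier results of these data known. The labels do not say whether tumors came from separate mice. Tests were tested on simulated data. Alternatives were other pseudocounts, filters, scalings, DESeq2 1.42.0 and edgeR, removal of a length and GC trend, a replicate block, and leaving out each tumor. Ratios to Cd3 genes, Ptprc and macrophage markers were added after seeing the data. R 4.3.3 and Python 3.11.15 (scipy 1.17.1) were used. One motif searched in the promoter windows is not reported here.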

Additional observations from a re-analysis of the deposited data

How the results depend on the processing

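Of the member values under alternatives, 138 of 144 kept their sign for NAM in M/D tumors, 114 of 125 for NAM in AT3 tumors, 189 of 192 for the interaction and 128 of 128 between models. Among all genes, 1350 were called for NAM in M/D tumors, and 2180 with no filter on low values, 859 with a group mean of at least 50 and 2095 by DESeq2 (784 to 2712 leaving out 1 tumor). In AT3 tumors 4458 were called, and 2640 with the length and GC trend removed (1618 to 6765 leaving out 1 tumor). The interaction gave 3377, and 2140 with that trend removed (1838 to 4574 leaving out 1 tumor), and the comparison of models gave 12176 (10752 to 12586 leaving out 1 tumor). Causes of these moves were not tested. Deviations of same-numbered tumors had correlations of -0.44 to 0.11 in M/D and -0.16 to 0.26 in AT3 tumors. Their means were -0.18 and 0.07, against 0.05 and -0.04 for tumors of different numbers. With 3 or 4 tumors per group these correlations cannot decide whether the numbers pair samples. With the replicate number as a block, 1001, 5082 and 2959 genes were called for the effect in M/D tumors, in AT3 tumors and the interaction, of which 0, 1296 and 0 passed an adjusted p of 0.05, against 1, 1 and 0 without it. Low read numbers limit Pdcd1, Pdcd1lg2 and Btla most, and groups of 3 or 4 tumors leave wide intervals.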
